A study of Mus musculus with 21 samples.

Results

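The imprinted growth genes Grb10, Gatm, Mest, Dlk1, Meg3, H19, Peg3, Plagl1, Ndn and Cdkn1c were followed in the right lung of mice after the left lung had been removed (left pneumonectomy). The remaining lobes grow after this operation. Probe sets, the groups of probes that an array reports as 1 value, were taken where the platform annotation gave 1 of these 10 symbols alone. Of the 10 genes, 9 had such a probe set, 1 each, among 19938 genes measured. H19 had none and was not analysed here. The mice were male C57BL/6, and 7 conditions were sampled: days 3, 7, 14, 28 and 56 after left pneumonectomy, day 0 before it with no operation, and day 56 after sham surgery. Each condition had 3 arrays of total RNA, 1 from the medial lobe, 1 from the cardiac lobe (a lobe of the right lung, not heart) and 1 from the whole right lung, so that each region had 7 arrays. The labels neither give the age of the mice nor say whether 1 animal, several or a pool supplied the 3 regions sampled at each time. The p-values therefore measure how far a difference varied between regions, and that spread may be partly technical. Sham surgery was sampled at day 56 alone, so the early days had no operated control of their own age.

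An imprinted gene is read mainly from the copy inherited from one parent, with DNA methylation set in the egg or the sperm marking which copy is silent. Many imprinted genes set the size of the fetus and its organs, are high before birth and are turned down in lung and other organs as the young animal stops growing. Grb10, Meg3, H19 and Cdkn1c are read from the maternal copy in most mouse tissues, Mest, Dlk1, Peg3, Plagl1 and Ndn from the paternal one, and Gatm is imprinted in the mouse placenta and yolk sac. The arrays measured both parental copies together, and in whole tissue a change in the number of cells that make an RNA and a change in the RNA per cell cannot be told apart.

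Promoters of Grb10, Gatm, Mest and Meg3 are shown. These genes were higher than at day 0 at both days 3 and 7 (adjusted p under 0.05 in the limma fit described below). That of Peg3 is added as the only listed promoter of the imprinted genes with a match to the binding motif of the protein made by Plagl1. The sequences are those of RefSeq on GRCm38.p6, 250 bases before to 50 bases after the start of a transcript, 5′ to 3′ on the strand of the gene, and 8 of the 10 genes had an entry. Searched on both strands were the Zac1 (Plagl1) motif GGGGCCCC, the AP-1 motif TGANTCA, an E2F motif TTTGGCGC and TATAAA, which 1.08%, 7.81%, 0.514% and 13.6% of all 32851 promoters of this length held. Capitals mark the matches, and a sequence without capitals had none. Grb10 (first of its start sites listed, chr11:12037371-12037670, minus strand) had 45 CG pairs, more than 98.1% of promoters, whose median was 7. Gatm (chr2:122611228-122611527, minus strand) had 22 CG pairs and Mest (the second of 3 starts listed, chr6:30737800-30738099, plus strand) had 17. The Meg3 start shown (chr12:109540746-109541045, plus strand) had 13 CG pairs and held TATAAA on both strands in overlapping positions. Peg3 (chr7:6730370-6730669, minus strand) had 13 CG pairs and held the Zac1 motif from position -201 relative to its start.
Grb10: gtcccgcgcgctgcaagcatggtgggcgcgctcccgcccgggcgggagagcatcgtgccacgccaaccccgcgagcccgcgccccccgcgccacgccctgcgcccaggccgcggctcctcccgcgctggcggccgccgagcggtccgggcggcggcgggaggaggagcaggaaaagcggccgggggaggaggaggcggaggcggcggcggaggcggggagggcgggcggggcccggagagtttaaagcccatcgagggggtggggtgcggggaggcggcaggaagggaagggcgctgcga
Gatm: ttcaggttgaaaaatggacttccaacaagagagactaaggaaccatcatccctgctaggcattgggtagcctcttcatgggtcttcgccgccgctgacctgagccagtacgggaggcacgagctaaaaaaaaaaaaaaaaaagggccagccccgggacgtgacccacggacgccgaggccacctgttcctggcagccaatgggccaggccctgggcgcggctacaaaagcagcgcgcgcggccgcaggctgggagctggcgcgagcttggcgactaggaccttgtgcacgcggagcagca
Mest: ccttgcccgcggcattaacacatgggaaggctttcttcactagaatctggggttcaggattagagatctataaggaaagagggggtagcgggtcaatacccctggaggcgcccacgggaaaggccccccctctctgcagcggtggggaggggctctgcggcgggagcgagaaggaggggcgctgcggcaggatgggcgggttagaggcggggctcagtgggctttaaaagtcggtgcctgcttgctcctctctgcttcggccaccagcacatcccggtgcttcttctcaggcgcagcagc
Meg3: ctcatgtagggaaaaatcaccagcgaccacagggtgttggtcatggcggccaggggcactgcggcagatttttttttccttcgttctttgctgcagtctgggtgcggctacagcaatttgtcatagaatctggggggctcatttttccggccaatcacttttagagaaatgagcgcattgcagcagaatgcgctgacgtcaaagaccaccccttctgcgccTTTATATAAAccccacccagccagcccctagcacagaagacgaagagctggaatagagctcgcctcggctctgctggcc
Peg3: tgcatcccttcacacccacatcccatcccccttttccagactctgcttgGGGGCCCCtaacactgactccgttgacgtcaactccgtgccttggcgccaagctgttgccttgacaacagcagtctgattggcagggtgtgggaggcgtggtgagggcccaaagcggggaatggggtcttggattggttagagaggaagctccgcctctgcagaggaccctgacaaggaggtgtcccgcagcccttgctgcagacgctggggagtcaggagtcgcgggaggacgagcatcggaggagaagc

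The Mest gene also carries Mir335 in an intron. The RefSeq mature forms of this miRNA lie at chr6:30741314-30741336 (5p) and chr6:30741354-30741375 (3p) on the plus strand of GRCm38.p6, and are shown with the seed, bases 2 to 8, in capitals, because the array measured Mir335 separately from its host.
mmu-miR-335-5p: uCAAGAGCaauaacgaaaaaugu
mmu-miR-335-3p: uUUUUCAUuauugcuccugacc

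Values are the log2 RMA values deposited by the authors, and 1 unit is a doubling. Levels of different genes are not compared, because probe sets differ in brightness. All 21 arrays carried the markers of alveolar type II cells, the surfactant-making cells of the lung, at a mean log2 level of 11.6 to 12.5, so the labelled tissue bore its defining markers. The interquartile range of log2 values over genes was 3.51 to 3.72 in medial lobes, 3.34 to 3.72 in cardiac lobes and 3.13 to 3.58 in whole lungs. The lowest values of the last 2 regions belonged to the day 7 cardiac lobe and the day 56 pneumonectomy whole lung. They are called the 2 doubted arrays, a choice made with earlier results of these data known, and results that changed without them are given beside the main ones.

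At day 3 after pneumonectomy Gatm, Grb10, Mest, Meg3 and Dlk1 were higher than at day 0, and none of the 9 genes passed as lower. These 5 of 9 genes passed at an adjusted p under 0.05 in the limma fit, where 6.7% of all genes did. The 9 genes were chosen with earlier results of these data known, so they are not an unselected set beside all genes. At day 7 against day 0 Mest, Gatm, Meg3 and Grb10 passed, all higher, 4 of 9 genes where 8.69% of all genes passed. Without the 2 doubted arrays 6 genes passed at day 3, Plagl1 as lower, and 2 at day 7, Mest and Grb10, where 14.2% and 5.28% of all genes did. The median log2 difference of the 9 genes was 0.48 at day 3 and 0.36 at day 7, and that of all genes 0.013 and 0.026. The mean log2 level over the 9 genes was 7.91 to 8.03 in the 3 day 3 arrays and 7.70 to 7.90 in the day 7 arrays, against 7.35 to 7.50 in the day 0 arrays and 7.38 to 7.49 in the sham arrays. Arrays of 2 conditions without overlap were common. At day 3, 27.5% of all genes had no overlap with day 0 and 19.6% none with sham (7 and 4 of the 9 genes). At day 7 it was 29.5% and 14.4% (3 and 3 of the 9). Against day 0 it was 15.3% at day 14 (2 of the 9) and 15.1% at day 28 (1 of the 9). Unless SD is stated, ± gives the standard error of a fitted log2 difference between conditions of 3 arrays each.

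**Figure D1:**
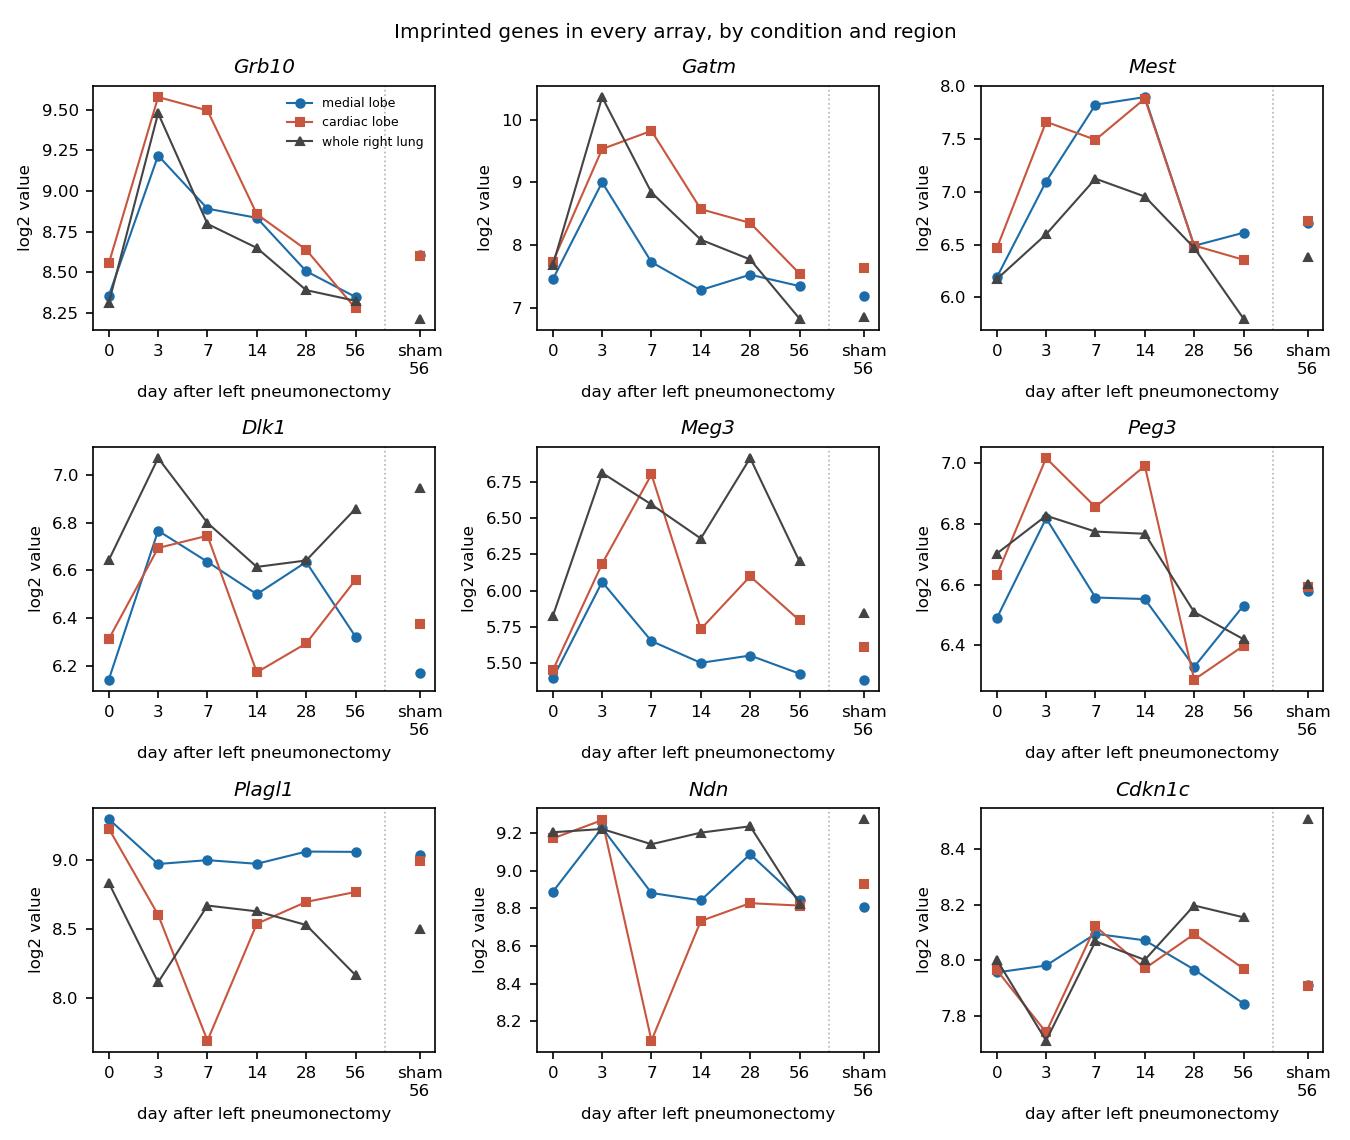
Log2 RMA value (y axis) of each of the 9 imprinted genes in all 21 arrays, by day after left pneumonectomy (x axis), with day 0 before surgery at the left and day 56 sham surgery right of the dotted line. Each point is 1 array of the medial lobe (circles), cardiac lobe (squares) or whole right lung (triangles), lines join the days of a region, and the y axes differ between genes; Grb10 stands highest at day 3 in every region, while Mest stands highest at day 14 in both lobes and at day 7 in the whole lung.

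Grb10 encodes an adaptor protein that binds the insulin and IGF1 receptors and restrains growth signalling. In the medial lobe its log2 value was 8.36, 9.22, 8.89, 8.84, 8.51 and 8.35 at days 0, 3, 7, 14, 28 and 56, and 8.61 after sham surgery. The cardiac lobe had 8.55, 9.58, 9.50, 8.86, 8.64 and 8.28 over the same days, and 8.60 after sham. The whole lung had 8.31, 9.48, 8.80, 8.65, 8.39 and 8.32, and 8.22 after sham. In all 3 regions the highest array was that of day 3, and by day 28 the values overlapped those of day 0. The difference at day 3 from day 0 was 1.02 ± 0.12 on the log2 scale, a 2.03-fold level (adjusted p = 0.000156), and from sham 0.95 ± 0.12 (adjusted p = 0.000197). At day 7 the differences were 0.65 ± 0.12 from day 0 (adjusted p = 0.00652) and 0.59 ± 0.12 from sham (adjusted p = 0.0128). At both days the arrays overlapped those of neither control. Both day 3 calls held in the 7 other settings tried and when each of the 21 arrays was left out in turn (adjusted p up to 0.00223 on leaving out 1 array). Averaging probe sets, 1 of these settings, left the Grb10 values unchanged, as the gene had 1 probe set. The day 7 call against sham did not hold without the day 7 cardiac lobe (0.42, adjusted p = 0.0615), the sham cardiac lobe (0.58, adjusted p = 0.0699) or the sham whole lung (0.50, adjusted p = 0.0731). It did not hold without the region term (adjusted p = 0.0742) or in the lobes alone (adjusted p = 0.0588) either.

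Gatm encodes glycine amidinotransferase, the enzyme that takes the first step of creatine synthesis from arginine and glycine, and had the largest differences of the 9 genes at day 3. Its log2 value in the whole lung was 7.68, 10.36, 8.84, 8.09, 7.78 and 6.83 at days 0, 3, 7, 14, 28 and 56, and 6.85 after sham surgery. In the cardiac lobe the course was 7.74, 9.53, 9.82, 8.58, 8.36 and 7.55, with 7.64 after sham. In the medial lobe it was 7.46, 9.003, 7.73, 7.29, 7.53 and 7.35, with 7.20 after sham. The medial lobe and the whole lung peaked at day 3, whereas the cardiac lobe stood slightly higher at day 7 than at day 3. The day 3 level was 4.01-fold that of day 0 (log2 2.01 ± 0.34, adjusted p = 0.00193) and 5.28-fold that of sham (log2 2.40 ± 0.34, adjusted p = 0.000393). The day 3 arrays overlapped neither control, and the increase over day 0 was 2.68 in the whole lung, 1.80 in the cardiac lobe and 1.54 in the medial lobe. Leaving out each of the 21 arrays in turn kept the day 3 calls, and the lobes alone did not keep the one against day 0 (1.67, adjusted p = 0.0673). At day 7 the level was 2.25-fold that of day 0 (log2 1.17 ± 0.34, adjusted p = 0.0447) and 2.97-fold that of sham (log2 1.57 ± 0.34, adjusted p = 0.0152). By region the day 7 increase over day 0 was 2.08 in the cardiac lobe, 1.16 in the whole lung and 0.27 in the medial lobe, and the day 7 arrays overlapped those of day 0. Without the day 7 cardiac lobe the day 7 call was lost against day 0 (0.81, adjusted p = 0.255) and against sham (1.21, adjusted p = 0.0901). The one against day 0 was also lost without the day 7 whole lung (1.15, adjusted p = 0.0546), or the day 0 medial lobe (1.31, adjusted p = 0.0646), cardiac lobe (1.003, adjusted p = 0.162) or whole lung (1.20, adjusted p = 0.123). The one against sham was lost without the sham cardiac lobe (1.57, adjusted p = 0.0739) or whole lung (1.35, adjusted p = 0.0829). Without the 2 doubted arrays neither passed (0.79, adjusted p = 0.173 against day 0 and 1.18, adjusted p = 0.0598 against sham). Both were lost too without the region term (adjusted p = 0.160 against day 0 and 0.0971 against sham) and in the lobes alone (adjusted p = 0.0815 and 0.0723). In all, the day 7 call against day 0 was lost in 13 of 21 fits that each left out 1 array, arrays of other days included.

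Mest encodes a protein with an alpha/beta hydrolase fold, paternally expressed and abundant in fetal mesoderm, and was the one of the 9 genes that still passed at day 14. Its medial lobe values were 6.19, 7.10, 7.83, 7.90, 6.49 and 6.61 at days 0, 3, 7, 14, 28 and 56, and 6.71 after sham. Its cardiac lobe values were 6.47, 7.66, 7.49, 7.88, 6.49 and 6.36, and 6.73 after sham. Its whole lung values were 6.17, 6.60, 7.13, 6.96, 6.47 and 5.80, and 6.38 after sham. Both lobes were highest at day 14 and the whole lung at day 7, and at day 28 each region was within 0.30 of its own day 0 array. Against day 0 the differences were 0.84 ± 0.18 at day 3 (1.80-fold, adjusted p = 0.0103) and 1.21 ± 0.18 at day 7 (2.31-fold, adjusted p = 0.00170). Mest was 1.30 ± 0.18 above day 0 at day 14 (2.47-fold, adjusted p = 0.00231). At none of these 3 days did the arrays overlap those of day 0. Neither did they at day 28, where the difference of 0.21 ± 0.18 did not pass (adjusted p = 0.854). Against sham the difference was 0.88 ± 0.18 at day 7 (adjusted p = 0.0126). At days 3 and 14 it was 0.52 ± 0.18 (adjusted p = 0.114) and 0.97 ± 0.18 (adjusted p = 0.0825), which did not pass. The day 14 difference from sham, 0.97, passed without the 2 doubted arrays (adjusted p = 0.0420), with each array centred on its median (adjusted p = 0.0452) and without the day 3 cardiac lobe (adjusted p = 0.0373). The sham arrays stood 0.33 ± 0.18 above those of day 0, a difference that did not pass (adjusted p = 0.619). Without the region term neither the day 3 call against day 0 (adjusted p = 0.121) nor the day 7 call against sham (adjusted p = 0.144) was kept. The day 3 call was lost without the day 0 medial lobe (0.71, adjusted p = 0.0591) or the day 3 cardiac lobe (0.63, adjusted p = 0.0706). The day 7 call against sham was lost without the day 7 medial lobe (0.76, adjusted p = 0.0543) or the sham cardiac lobe (0.84, adjusted p = 0.0755).

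Mir335, the miRNA whose sequences stand above, had a probe set of its own and did not pass at day 3 or 7 against either control. Its log2 value averaged 4.67 ± 0.10 (SD, n = 3) at day 3 and 4.75 ± 0.22 (SD, n = 3) at day 7, against 4.56 ± 0.05 (SD, n = 3) at day 0 and 4.64 ± 0.16 (SD, n = 3) after sham. The fitted differences from day 0 were 0.11 ± 0.12 at day 3 (adjusted p = 0.664) and 0.19 ± 0.12 at day 7 (adjusted p = 0.280). The probe set was dim, and it does not tell the precursor from the mature miRNA, so the level of the mature form was not measured. None of 33 measured miRNA genes of these imprinted loci, most from the Dlk1-Meg3 domain, passed at day 3 or 7 against either control. The smallest p at day 7 against day 0 belonged to Mir485, from the Dlk1-Meg3 region, at 0.24 ± 0.088 (adjusted p = 0.0919), and Mir483, from an Igf2 intron, at 0.73 ± 0.27 (adjusted p = 0.100).

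Meg3, a maternally expressed long noncoding RNA, shares an imprinted domain on chromosome 12 with the protein-coding gene Dlk1. In the whole lung Meg3 measured 5.82, 6.81, 6.59, 6.36, 6.92 and 6.20 at days 0, 3, 7, 14, 28 and 56, and 5.85 after sham. The cardiac lobe gave 5.45, 6.19, 6.80, 5.73, 6.10 and 5.79, and 5.61 after sham. The medial lobe gave 5.39, 6.06, 5.65, 5.50, 5.55 and 5.43, and 5.38 after sham. The highest array was that of day 3 in the medial lobe, day 7 in the cardiac lobe and day 28 in the whole lung. Meg3 was higher at day 3 by 0.80 ± 0.18 against day 0 (adjusted p = 0.0132) and by 0.74 ± 0.18 against sham (adjusted p = 0.0179), with no overlap with either control. At day 7 it was higher by 0.80 ± 0.18 against day 0 (adjusted p = 0.0158) and 0.74 ± 0.18 against sham (adjusted p = 0.0297). The day 7 arrays overlapped both controls, and the medial lobe differed by 0.26 and the cardiac lobe by 1.35 from day 0. At day 28 its 0.63 ± 0.18 above day 0 did not pass (adjusted p = 0.453). None of the 4 calls at days 3 and 7 held without the region term (adjusted p = 0.203 to 0.373) or in the lobes alone (adjusted p = 0.0545 to 0.205). The day 3 call against day 0 was lost without the day 0 cardiac lobe (0.74, adjusted p = 0.0689), the day 0 whole lung (0.72, adjusted p = 0.0759) or the day 3 whole lung (0.77, adjusted p = 0.0645). The one against sham was lost without the day 3 medial lobe (0.68, adjusted p = 0.0609), the day 3 whole lung (0.71, adjusted p = 0.0894), the sham cardiac lobe (0.74, adjusted p = 0.0700) or the sham whole lung (0.64, adjusted p = 0.0936). At day 7 the call against day 0 was lost without the day 7 cardiac lobe (0.53, adjusted p = 0.0741), the day 0 cardiac lobe (0.74, adjusted p = 0.0733) or the day 0 whole lung (0.72, adjusted p = 0.0798). The day 7 call against sham was lost without the day 7 cardiac lobe (0.47, adjusted p = 0.142), the sham cardiac lobe (0.74, adjusted p = 0.117) or the sham whole lung (0.64, adjusted p = 0.128). Without the 2 doubted arrays neither day 7 call was kept (0.52, adjusted p = 0.0590 against day 0 and 0.46, adjusted p = 0.127 against sham).

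Dlk1 encodes a membrane protein with EGF-like repeats related to the Notch ligands, known for holding back adipocyte differentiation. Its day 3 arrays read 6.77, 6.69 and 7.07 in the medial lobe, cardiac lobe and whole lung, against 6.14, 6.31 and 6.64 at day 0 and 6.17, 6.38 and 6.95 after sham. The day 3 arrays lay above all day 0 arrays, but overlapped those of sham, whose whole lung lay above both lobes of day 3. The difference from day 0 was 0.48 ± 0.13 (1.39-fold, adjusted p = 0.0333). That from sham was 0.35 ± 0.13 (adjusted p = 0.126), and that at day 7 from day 0 was 0.36 ± 0.13 (adjusted p = 0.0843). The day 3 call was lost on leaving out any 1 of the 6 arrays compared. This holds for the day 3 medial lobe (0.46, adjusted p = 0.0908), cardiac lobe (0.50, adjusted p = 0.0851) or whole lung (0.48, adjusted p = 0.109). It holds too for the day 0 medial lobe (0.41, adjusted p = 0.133), cardiac lobe (0.52, adjusted p = 0.0765) or whole lung (0.51, adjusted p = 0.0832). It was also lost without the region term (adjusted p = 0.243) and in the lobes alone (adjusted p = 0.155). The day 7 difference passed without the day 7 whole lung (0.45, adjusted p = 0.0382). Of 5 other measured genes of the Dlk1-Meg3 domain none passed at day 3 against either control. At day 7 against day 0, Rtl1, a retrotransposon-derived placental gene of that domain, was higher by 0.47 ± 0.12 (adjusted p = 0.0293), and against sham it was at 0.38 ± 0.12 (adjusted p = 0.0984).

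Plagl1, also called Zac1, and Peg3 encode zinc-finger proteins, and Plagl1 is known in mouse to act on several other imprinted genes. Plagl1 was the only 1 of the 9 genes whose highest array was that of day 0 in all 3 regions. Its medial lobe values were 9.30, 8.97, 8.999, 8.97, 9.06 and 9.06 at days 0, 3, 7, 14, 28 and 56, with 9.04 after sham. The cardiac lobe had 9.23, 8.60, 7.69, 8.54, 8.70 and 8.77, with 8.99 after sham. The whole lung had 8.83, 8.11, 8.67, 8.63, 8.53 and 8.16, with 8.50 after sham. Against day 0 Plagl1 was at -0.56 ± 0.22 at day 3 (adjusted p = 0.161) and at -0.67 ± 0.22 at day 7 (adjusted p = 0.0685), and neither passed. It passed at day 3 without the 2 doubted arrays (-0.56, adjusted p = 0.00331) or without the day 7 cardiac lobe alone (-0.56, adjusted p = 0.00754). It passed at day 7 without the day 7 whole lung (-0.94, adjusted p = 0.0121). The lowest of all its values, 7.69, belonged to the day 7 cardiac lobe. Sham itself was at -0.28 ± 0.22 against day 0 (adjusted p = 0.764). Against sham Plagl1 was at -0.28 ± 0.22 at day 3 and -0.39 ± 0.22 at day 7 (adjusted p = 0.635 and 0.352).

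Peg3 read 6.82, 7.02 and 6.83 at day 3 in the medial lobe, cardiac lobe and whole lung, against 6.49, 6.63 and 6.70 at day 0 and 6.58, 6.59 and 6.60 after sham. The day 3 arrays lay above both controls without overlap, by 0.28 ± 0.10 against day 0 (adjusted p = 0.106) and 0.30 ± 0.10 against sham (adjusted p = 0.0818), and neither difference passed. Of all genes 27.5% had no overlap between day 3 and day 0, and 19.6% none between day 3 and sham. At day 28 it read 6.33, 6.29 and 6.51, below day 0 in every region, at -0.23 ± 0.10 (adjusted p = 0.659). The moderated F test, which asks whether any of the 7 conditions differ, did pass for Peg3 (adjusted p = 0.0204), and its highest array in each region was that of day 3.

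Cdkn1c, an inhibitor of cyclin-dependent kinases that halts the cell cycle, and Ndn, a MAGE-family protein that restrains growth, passed in no comparison between conditions. Cdkn1c ran from 7.71 to 8.51 over the 21 arrays, with the lowest array at day 3 and the highest after sham, both in the whole lung. Its differences from day 0 were -0.16 ± 0.12 at day 3 and 0.12 ± 0.12 at day 7 (adjusted p = 0.527 and 0.502). Ndn ran from 8.10 to 9.27, and its lowest array, like that of Plagl1, was the day 7 cardiac lobe. That array differed from the day 0 cardiac lobe by -1.07, while the medial lobe and whole lung differed by -0.01 and -0.06. Its fitted difference from day 0 was 0.15 ± 0.17 at day 3 (adjusted p = 0.691) and -0.38 ± 0.17 at day 7 (adjusted p = 0.144). Without the day 7 whole lung the one at day 7 passed (-0.53, adjusted p = 0.0497). Among 5 other cyclin-dependent kinase inhibitors none passed at day 3 against day 0. At day 7, where 8.69% of all genes passed, Cdkn1b (p27) was lower at -0.48 ± 0.13 (adjusted p = 0.0338). Against sham at day 3, where 7.67% of all genes passed, Cdkn2b (p15) was lower at -0.52 ± 0.13 (adjusted p = 0.0199) and Cdkn2c (p18) higher at 0.51 ± 0.14 (adjusted p = 0.0301).

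Set against sham in place of day 0, Gatm, Grb10 and Meg3 passed at day 3, all higher, 3 of 9 genes where 7.67% of all genes passed. At day 7 against sham Gatm, Mest, Meg3 and Grb10 passed, all higher, 4 of 9 genes where 4.52% of all genes did. The comparisons at days 3 and 7 share the arrays of their day, and those with a common control share its arrays, so they are not independent of each other. The median difference of the 9 genes from sham was 0.35 at day 3 and 0.23 at day 7, against -0.0044 and 0.0058 over all genes. Mest and Dlk1 at day 3 passed against day 0 and not against sham. Whether the 2 differences differ is the comparison of sham with day 0, in which none of the 9 genes passed (0 with an unadjusted p under 0.05) and 0.381% of all genes did.

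**Figure D2:**
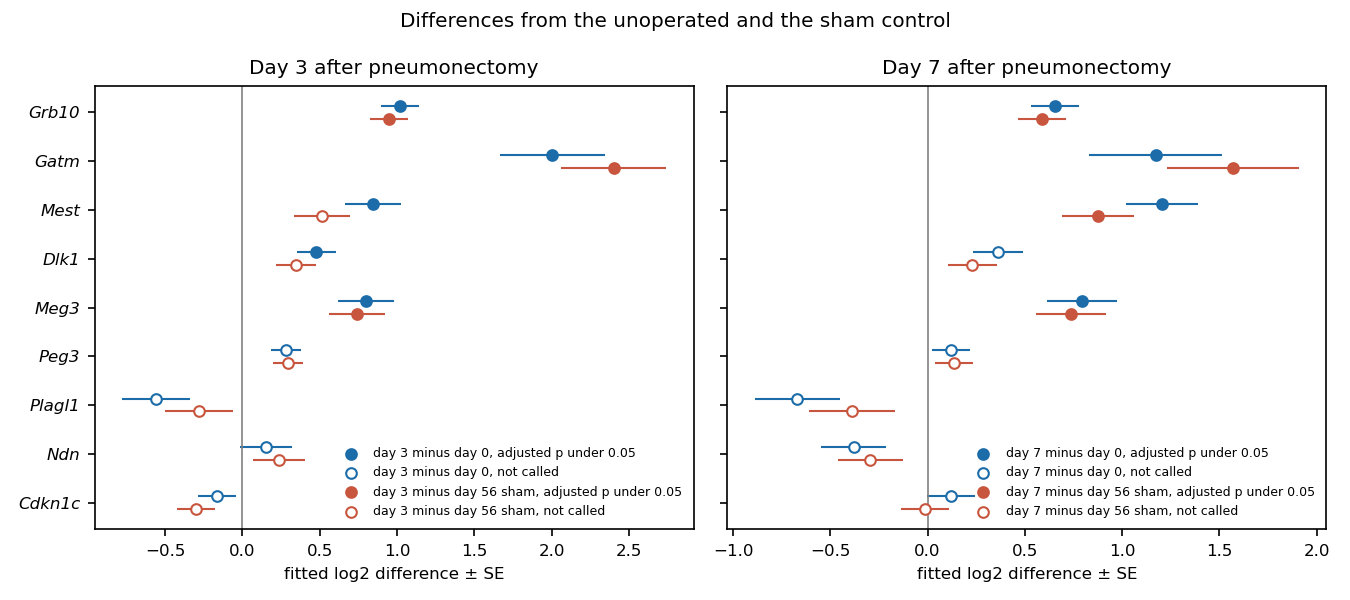
Fitted log2 difference (x axis, points with SE bars, limma) of the 9 imprinted genes at day 3 (left) and day 7 (right) after pneumonectomy, minus day 0 (blue) and minus day 56 sham (red); filled points had an adjusted p under 0.05. Gatm lies furthest right at day 3 against both controls, at 2.01 and 2.40, and Plagl1 lies left of 0 in all 4 comparisons, though without the day 7 cardiac lobe its day 7 difference from sham is 0.0061.

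Later in the course few differences remained. At day 14 against day 0 Mest alone passed, 1 of 9 genes where 1.2% of all genes did. Without the 2 doubted arrays Grb10 (0.37, adjusted p = 0.0364) and Plagl1 (-0.41, adjusted p = 0.0485) passed as well. At day 28 against day 0 none passed (2 with an unadjusted p under 0.05, Meg3 and Peg3), where 0% of all genes did. At day 56 against day 0 none passed (0 with an unadjusted p under 0.05), where 0.0903% of all genes did. Against sham none passed at day 14 (3 with an unadjusted p under 0.05, 0.0652% of all genes called), day 28 (2, 0.186% called) or day 56 (0, 0.336% called). At day 56 the largest difference from sham was that of Mest at -0.35 ± 0.18 (adjusted p = 0.667).

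Days 14 and 3 were compared after the courses of the genes had been seen. At day 14 Grb10 was lower than at day 3, at log2 -0.64 ± 0.12 (adjusted p = 0.00785), and so was Gatm at -1.65 ± 0.34 (adjusted p = 0.0120), 2 of 9 genes where 3.63% of all genes passed. Mest over the same interval was at 0.46 ± 0.18 (adjusted p = 0.245), and Meg3 at -0.49 ± 0.18 (adjusted p = 0.191). Meg3 passed here when the day 7 cardiac lobe was left out (-0.49, adjusted p = 0.0406) and when both doubted arrays were (-0.49, adjusted p = 0.0392). Grb10 lost its call without the day 3 whole lung (-0.55, adjusted p = 0.0655) and in the lobes alone (-0.55, adjusted p = 0.184). Gatm lost its call without the day 3 whole lung (-1.23, adjusted p = 0.0918) or the day 14 medial lobe (-1.48, adjusted p = 0.0704). It also lost it without the region term (-1.65, adjusted p = 0.0842) and in the lobes alone (-1.34, adjusted p = 0.211). Between days 3 and 7 none of the 9 genes passed (4 with an unadjusted p under 0.05), where 0.0652% of all genes did. Over all 7 conditions the F test passed Grb10 (adjusted p = 0.000193), Mest (0.000375), Gatm (0.00173), Meg3 (0.0198) and Peg3, 5 of 9 genes where 7.76% of all genes passed.

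The levels of 5 of these genes differed between lobes and whole lung in the fit over all conditions. In every condition both lobes lay above the whole lung for Mest and below it for Dlk1. For Meg3 both lay below it except at day 7, where the cardiac lobe read 6.80 and the whole lung 6.59. Ndn and Plagl1 did not keep the same direction in every condition. At day 3 Ndn, lower in the lobes over all conditions, read 9.23 in the medial and 9.27 in the cardiac lobe, against 9.22 in the whole lung. At day 7 Plagl1, higher in the lobes over all conditions, read 8.999 in the medial and 7.69 in the cardiac lobe, against 8.67 in the whole lung. Mest was higher in the lobes than in the whole lung by log2 0.49 ± 0.10 (adjusted p = 0.00337), and Plagl1 by 0.36 ± 0.12 (adjusted p = 0.0407). Meg3 was lower in the lobes, at -0.61 ± 0.10 (adjusted p = 0.000794), as were Dlk1 at -0.34 ± 0.072 (adjusted p = 0.00317) and Ndn at -0.27 ± 0.095 (adjusted p = 0.0427). That made 5 of 9 genes where 29.1% of all genes passed, and 42.4% had an unadjusted p under 0.05. Mest averaged 6.97 ± 0.66 in medial and 7.01 ± 0.65 in cardiac lobes, against 6.50 ± 0.45 in whole lungs (SD over 7 conditions). Meg3 averaged 5.57 ± 0.24 and 5.95 ± 0.46 in the lobes, against 6.37 ± 0.44 in whole lungs. The Plagl1 call was lost in 17 of 21 fits that each left out 1 array (differences of 0.30 to 0.48, adjusted p up to 0.123) and with centred arrays (0.31, adjusted p = 0.0588). The Ndn call was lost in 13 of 21 (-0.32 to -0.21, adjusted p up to 0.107). Grb10, at 0.17 ± 0.070 (adjusted p = 0.0721), passed without the 2 doubted arrays (0.16, adjusted p = 0.0425). It also passed without the day 3 medial lobe (0.20, adjusted p = 0.0422), the day 3 whole lung (0.22, adjusted p = 0.0400) or the day 56 pneumonectomy cardiac lobe (0.20, adjusted p = 0.0440). Between the cardiac and the medial lobe none of the 9 genes passed (4 with an unadjusted p under 0.05), where 0.0903% of all genes did. The largest difference was that of Gatm at 0.81 ± 0.22 (adjusted p = 0.234).

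Whether the early response differed between regions was tested with days 3 and 7 pooled against day 0 and sham. None of the 9 genes passed for the cardiac against the medial lobe or for the whole lung against the lobes (1 with an unadjusted p under 0.05 in each), where 0% of all genes did. Between the lobes the response of Gatm differed by 0.95 ± 0.71, that of Plagl1 by -0.79 ± 0.34 and that of Ndn by -0.57 ± 0.36 (each with adjusted p = 0.964). Without the day 3 cardiac lobe, Plagl1 (-1.24, adjusted p = 0.0422) and Ndn (-1.16, adjusted p = 0.0250) passed, lower in the cardiac lobe, where 2.2% of all genes passed. The day 7 array then stood alone for the early phase of the cardiac lobe, held the lowest value of both genes there, and was assumed to vary like the other arrays. With the day 7 cardiac lobe left out instead, the difference for Ndn was 0.011. That array was 1 of the 2 with a low interquartile range.

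**Figure D3:**
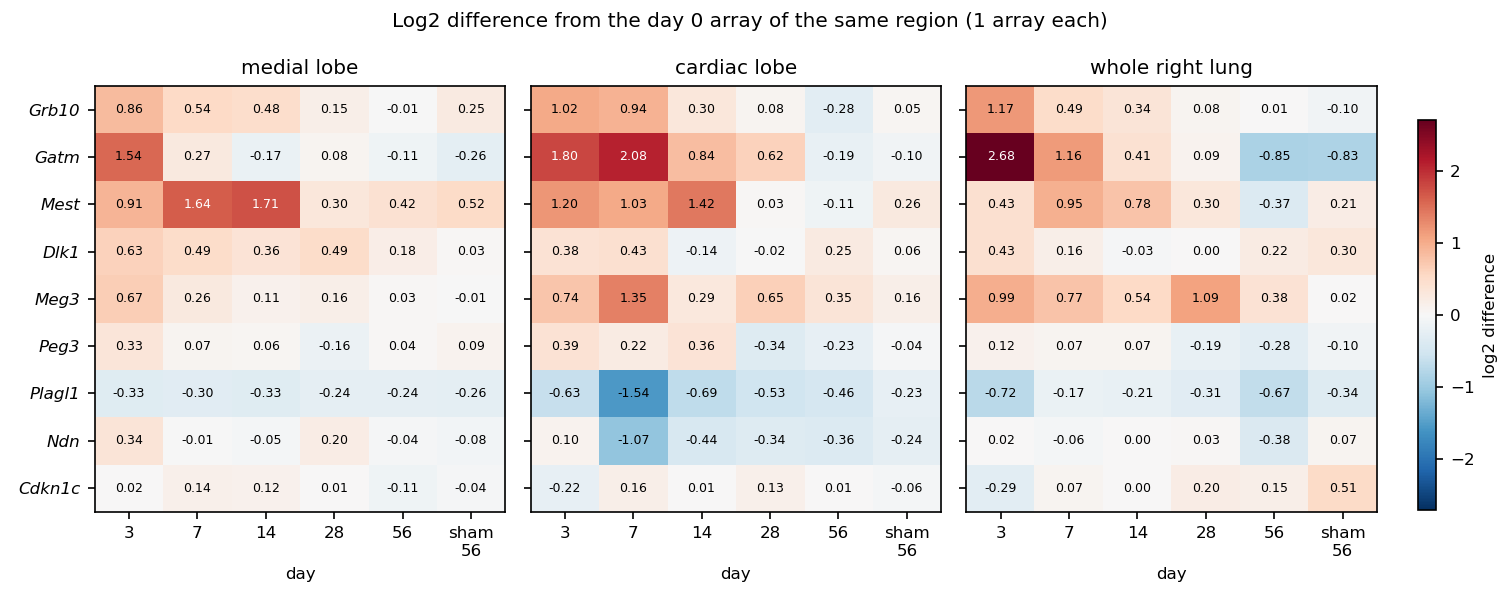
Log2 difference of each of the 9 imprinted genes (rows) from the day 0 array of the same region at days 3 to 56 after pneumonectomy and at day 56 after sham (columns), in the medial lobe, cardiac lobe and whole right lung; each cell is 1 array minus 1 array, with red higher and blue lower. Gatm at day 7 was 2.08 in the cardiac lobe, 1.16 in the whole lung and 0.27 in the medial lobe, and Plagl1 (-1.54) and Ndn (-1.07) have their lowest cells in the day 7 cardiac lobe.

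The 9 genes were set beside other imprinted genes. Both sets were chosen with earlier results of these data known, so the contrast between them may partly come from that choice. Of 54 other imprinted genes measured, Tfpi2, a protease inhibitor, was the only 1 higher at day 3 than at day 0 and Ppp1r9a, an actin-binding scaffold, the only 1 lower. Tfpi2 differed by 0.80 ± 0.15 (adjusted p = 0.00335) and Ppp1r9a by -0.39 ± 0.10 (adjusted p = 0.0237), and the median of the 54 was 0.066. At day 7 Tfpi2 (0.70 ± 0.15) and Rtl1 were higher, while Slc38a4, an amino acid transporter (-0.95 ± 0.25, adjusted p = 0.0294), and Igf2, the fetal growth factor (-0.48 ± 0.12, adjusted p = 0.0242), were lower, with a median of 0.017. These were 2 of 54 at day 3 and 4 of 54 at day 7, where 6.7% and 8.69% of all genes passed. The counts became 8 and 2 without the 2 doubted arrays (14.2% and 5.28% of all genes) and 0 and 6 in the lobes alone (1.68% and 7.59%). At day 3 the count was 1 without the day 0 cardiac lobe, the day 3 cardiac lobe or the day 3 whole lung. At day 7 it was 14 without the day 7 whole lung, where 19.5% of all genes passed, 2 without the day 0 medial lobe, and 1 without the day 7 cardiac lobe or the day 0 whole lung. No other imprinted gene passed at day 7 (a count of 0) once the day 0 cardiac lobe was left out. Against sham 2 were higher (Tfpi2 at 0.70 ± 0.15 and Dcn at 0.37 ± 0.10) and 2 lower (Phactr2 at -0.60 ± 0.14 and Ppp1r9a at -0.37 ± 0.10) at day 3, and 1 higher and 3 lower at day 7. Of all genes 7.67% and 4.52% passed against sham at these days. Igf2 lies next to H19, and at day 7 it was also lower than after sham, at -0.55 ± 0.12 (adjusted p = 0.0145). It was the only 1 of 12 genes of the H19-Igf2 and Cdkn1c domains that passed at day 3 or 7 against either control.

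**Figure D4:**
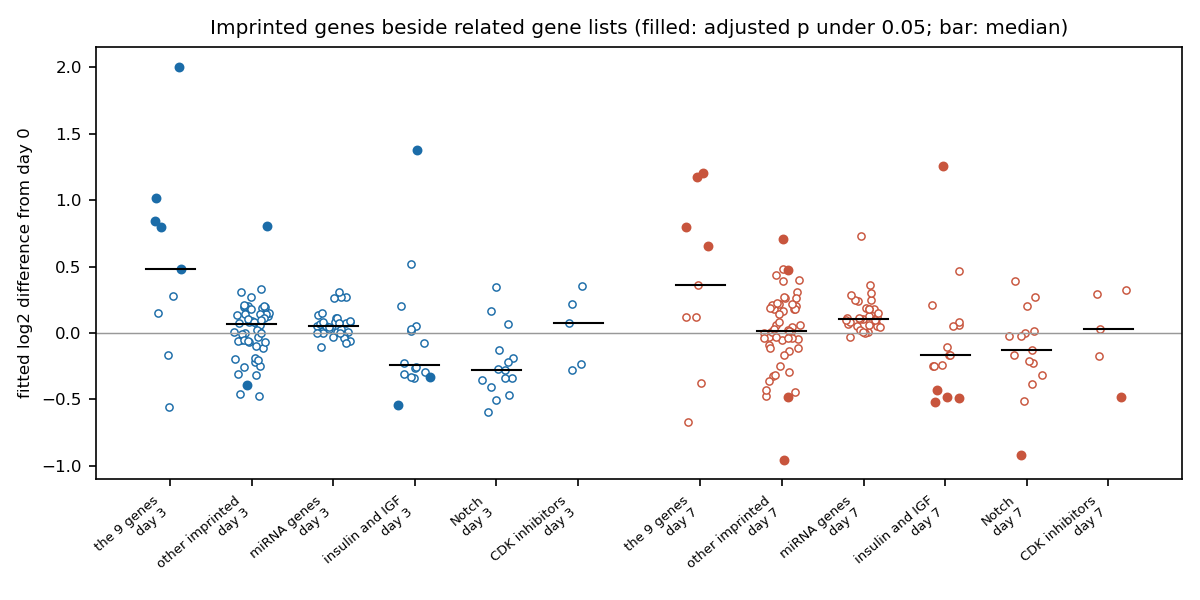
Fitted log2 difference from day 0 (y axis) at day 3 (blue) and day 7 (red) of the 9 imprinted genes and of the genes in 5 related lists that do not include them (x axis); each point is a gene, filled where its adjusted p was under 0.05, and bars are medians. The bar of the 9 genes lies at 0.48 at day 3 and 0.36 at day 7, and that of the 54 other imprinted genes at 0.066 and 0.017. Genes and lists were chosen with earlier results of these data known.

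The pathways in which these genes act were read from lists of their other members. Of all genes, 6.7% passed at day 3 and 8.69% at day 7 against day 0. Against sham 7.67% and 4.52% did. Of 16 genes of the insulin and IGF pathway, where Grb10 acts, Igf1, the growth factor, was the only 1 higher at day 3 than at day 0, at 1.38 ± 0.14 (adjusted p = 3.62e-05). Grb7, an adaptor of the same family as Grb10, was lower at -0.55 ± 0.12, and so was the IGF-binding protein Igfbp6 at -0.33 ± 0.080. At day 7 Igf1 was higher by 1.25 ± 0.14, and the receptors Insr (-0.52 ± 0.16) and Igf1r (-0.43 ± 0.12), Grb7 (-0.49 ± 0.12) and Igf2 were lower. Against sham Igf1 was again the only 1 higher at both days (1.16 ± 0.14 and 1.04 ± 0.14). Grb14, another of that family, was lower at -0.63 ± 0.13 at day 3 and -0.47 ± 0.13 at day 7. In total, 3 of the 16 genes were lower at each day. The log2 value of Igf1 averaged 9.21 ± 0.37 at day 3 and 9.08 ± 0.61 at day 7, against 7.83 ± 0.17 at day 0 and 8.04 ± 0.11 after sham (SD, n = 3 each). Of 15 Notch pathway genes, to whose ligands Dlk1 is related, none passed at day 3 against day 0, and Hes1, a Notch target, was lower at day 7 at -0.92 ± 0.21 (adjusted p = 0.0175). Against sham 5 were lower at day 3, led by the ligand Dll1 at -0.73 ± 0.17 and the receptors Notch4 (-0.61 ± 0.16) and Notch3 (-0.61 ± 0.15), and none passed at day 7. Of 14 genes of creatine and arginine metabolism, the pathway of Gatm, Arg1, which splits arginine, was the only 1 that passed against day 0, at 4.35 ± 0.82 at day 3 (adjusted p = 0.00412) and 3.25 ± 0.82 at day 7 (adjusted p = 0.0254). Against sham Arg1 (4.30 ± 0.82) and the arginine transporter Slc7a2 (0.57 ± 0.17) were higher at day 3, and Arg1 alone at day 7.

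Marker lists of several cell types moved over the same days as Gatm, Grb10, Mest and Meg3. Of all genes, 6.7% passed at day 3 and 8.69% at day 7 against day 0. Against sham 7.67% and 4.52% did. At day 3 against day 0, 4 of 7 fibroblast markers, 4 of 7 interstitial macrophage markers, 4 of 6 mesothelial markers and 6 of 6 markers of dividing cells were higher and none lower. The mean level of the interstitial macrophage list was 9.34 to 9.88 in the day 3 arrays, against 8.48 to 8.69 at day 0 and 8.41 to 8.57 after sham. The fibroblast list stood at 9.55 to 9.89 at day 3, against 8.44 to 8.91 at day 0 and 8.67 to 9.05 after sham. The mesothelial list stood at 10.1 to 10.2, against 9.26 to 9.80 and 9.34 to 9.63. The list of dividing cells stood at 8.16 to 9.51, against 6.82 to 7.35 and 6.35 to 7.05. At day 14, when Mest was still high, the dividing list was at 6.90 to 7.43, the fibroblast list at 9.0 to 9.29 and the interstitial macrophage list at 8.62 to 9.21. At day 7 against day 0, 3 fibroblast, 3 interstitial macrophage, 2 mesothelial and 6 dividing-cell markers were higher. The highest fibroblast level of any array, 10.45, was that of a day 7 array. Of the alveolar type I list, 2 of 5 markers were lower at day 3 and 1 at day 7, and all 3 T cell and both B cell markers were lower at both days against day 0. Sham was also below day 0 for 2 of the 3 T cell markers, and its B cell median was -0.76 with none passing. Against sham no T or B cell marker passed at day 3, and 1 T cell and both B cell markers were lower at day 7. Of 5 alveolar macrophage markers 1 was lower at day 3 and 2 at day 7, of 4 adipocyte markers 1 at each day, and of 4 ciliated cell markers none at day 3 and 2 at day 7. The alveolar macrophage markers did not fall together, as their median difference from day 0 was -0.071 at day 3 and 0.18 at day 7. Against sham none of them passed at day 3, and at day 7 1 was higher and none lower (median 0.23). None of 6 alveolar type II, 5 endothelial, 4 smooth muscle or 5 cardiac muscle markers passed at day 3 or 7 against day 0. The cardiac muscle median was -0.77 at day 3 and -0.51 at day 7. Against sham 5 fibroblast, 6 interstitial macrophage, 4 mesothelial and 6 dividing-cell markers were higher at day 3, and 4, 3, 2 and 6 at day 7. Of the 5 endothelial markers 2 were lower than after sham at day 3 and 3 at day 7, and 1 alveolar type II marker was lower at day 3. Of the 5 alveolar type I markers 2 were lower than after sham at day 3 and 1 at day 7. The same counts held for the 5 cardiac muscle markers, with medians of -1.0 and -0.94. The part of these cell types in the levels of the imprinted genes was not tested.

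The genes whose course was most like that of each imprinted gene were found by Pearson's r over the 21 arrays after the mean of each region had been subtracted. Genes whose symbol starts with Gm and a number or ends in Rik were passed over. Arrays of a condition share that condition, so r is a description. Gatm was most like Slc7a8 (an amino acid transporter, r = 0.955), Fscn1 (an actin-bundling protein, 0.950) and C1qb (a complement chain made by macrophages, 0.950). Grb10 was most like Mrgprf (0.966), Steap4 (a metalloreductase, 0.965) and Egln3 (a prolyl hydroxylase, 0.954). Mest was most like Mfap4 (an elastic fibre protein, 0.885), Mlec (0.867) and Tnc (the matrix protein tenascin C, 0.849). Meg3 was most like Mdk (the growth factor midkine, 0.876), Mt1 (a metallothionein, 0.876) and Speg (0.873). Dlk1 was most like Lrrn2 (0.877), Ror2 (a Wnt receptor, 0.851) and Zfp575 (0.850). Peg3 was most like Fam98a (0.850), Wipi1 (0.849) and Nod1 (0.826). Plagl1 was most like Scnn1a (an epithelial sodium channel subunit, 0.954), Pik3r1 (0.932) and F11r (a junction protein, 0.932). Ndn was most like Gpm6a (0.914), Khdrbs1 (0.884) and Eefsec (0.863), and Cdkn1c most like Tmem160 (0.848), Olfr802 (0.841) and Itfg2 (0.802). Among the 9 genes themselves the closest pair was Grb10 and Gatm (r = 0.914), followed by Meg3 and Gatm (0.761). Meg3 and Dlk1, neighbours in 1 domain, had r = 0.497, and Plagl1 had r = -0.680 with Meg3 and 0.681 with Ndn. The day 7 cardiac lobe, a doubted array, held the lowest value of both Plagl1 (7.69) and Ndn (8.10). No r was computed without the doubted arrays, so how far these values rest on them was not tested.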

How the data were processed

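RNA of 21 right lung samples (7 conditions, 3 regions each) was measured on Affymetrix arrays. The deposited values are log2 values made by the authors with RMA (background correction, normalization between arrays and summary of probes), per the submitters' processing notes. RMA's version is not given in the sources used here. Amplification was from the 3′ end per the labels' protocols, whereas the probes are annotated as those of a whole-transcript array, so the labelling chemistry is unsettled. No detection call came with the values. Of 35556 probe sets, 21789 had 1 symbol in the platform annotation, 1621 several and 12146 none. The gene numbers of 21698 were matched to the RefSeq table of GRCm38.p6. Of 19938 genes, 999 had over 1 probe set and took the one with the highest mean.

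A linear model with additive condition and region terms was fitted to all genes and arrays with limma 3.58.1 in R 4.3.3. The region is the block. The labels give no animal, so this block pairs arrays by region. P-values were adjusted by Benjamini-Hochberg over all genes within each comparison, at a threshold of 0.05. The code was tested on simulated data. Differences in early response were fitted on region by phase means (control: day 0 and sham; early: days 3 and 7; late: the other days). Alternatives were no region term, averaging probe sets, leaving out genes dimmer than the median, centring, a trend with robust moderation, the lobes alone, leaving out each array, and leaving out both doubted arrays. All 9 genes were named; from the other lists up to 4 passing genes by size, or the smallest p-values. Genes and lists were chosen with earlier results of these data known. No array dates or batches entered the fit, since the labels give 1 hybridization entry for all arrays. The number of arrays limits the precision.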

Additional observations from a re-analysis of the deposited data

How the results depend on the processing

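None of the 24 calls on single genes changed direction under the alternatives run on it. Of the 129 differences that did not pass, 38 changed sign under at least 1 alternative, with none passing there, among them Cdkn1c at day 7 against sham (-0.014, and 0.20 in the lobes alone) and Mest at day 56 against day 0 (-0.019, and 0.16 in the lobes alone). The 24 calls all kept their side of the threshold with trend and robust moderation. With centred arrays 23 did, without the 2 doubted arrays 20 did, and in the lobes alone 8 did and 11 were lost. All 24 were also kept with averaged probe sets. Each of these genes had 1 probe set, so averaging left its values unchanged and was no test of its call. Without the region term, 8 calls were kept and 11 lost. Leaving out in turn each array of the groups compared kept a call in 152 fits and lost it in 67. Fits that left out an array of other conditions are not in these counts. Genes dimmer than the median of all genes include Mest, Meg3, Dlk1 and Peg3, so leaving dim genes out could not call them, and the other 12 calls were kept. Of the 9 genes, the count passing at day 3 against day 0 was 2 without the region term, 2 with dim genes left out and 2 in the lobes alone. Of all genes tested 3.15%, 8.32% and 1.68% passed there. At day 7 against day 0 the count was 2 under these 3 alternatives and 2 without the doubted arrays. The shares of all genes were 2.13%, 10.8%, 7.59% and 5.28%. At day 14 against day 0 the count was 0 with dim genes left out (1.64% of all genes) and 3 without the doubted arrays (4.07%). At day 7 against sham the count was 0 without the region term (1.44% of all genes) and 2 with dim genes left out (6.74%). It was 1 in the lobes alone (3.96%) and 2 without the doubted arrays (3.28%). At day 14 against sham it was 1 with centred arrays (0.0802%) and 1 without the doubted arrays (0.301%). For day 14 against day 3 it was 1 with no region term (1.51% of all genes) and 0 in the lobes alone (0.466%). For the lobes against the whole lung it was 2 with dim genes left out (43.2%). In the F test it was 3 without the region term (3.37%), 2 with dim genes left out (10.7%) and 2 in the lobes alone (2.73%). Leaving out 1 of the arrays compared gave 3 to 4 genes at day 3 and 2 to 6 at day 7 against day 0. Of all genes 3.33% to 6.38% and 2.46% to 19.5% passed there. At day 7 against sham leaving out 1 array gave 0 to 4. It gave 0 to 2 for day 14 against day 3, where 1.4% to 4.36% of all genes passed. For the lobes against the whole lung, where 29.1% of all genes passed with all arrays, it gave 3 to 5. Without the day 7 whole lung the count at day 7 against day 0 was 6, where 19.5% of all genes passed. Without the sham cardiac lobe that at day 7 against sham was 0, where 1.31% did. The files give no background level, so how far the dim probe sets lie above background is unknown.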
